A study of Mus musculus with 8 samples.

Results

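The 10 genes described here serve antigen presentation by major histocompatibility complex (MHC) class I: B2m, Tap1, Tap2, Tapbp, H2-K1, H2-D1, H2-T10, H2-T23, H2-M3 and Cd1d1. They were taken by symbol from the array annotation, and all 10 of the 10 named genes had at least 1 probe, with 16 probes among 41174 on the array. The array named 27712 genes in all. Colon RNA was measured on 8 arrays, 1 per mouse, in male mice aged 21 to 24 weeks that ate the AIN-76A powdered control diet. Per the labels, 4 mice were Mdr1a-/- on the FVB/N background with a colonic histological injury score labelled high, and 4 were wild type FVB/N with a score labelled low. In Mdr1a-/- mice the Abcb1a gene, which encodes a drug efflux pump, is disrupted in all tissues, and they are used as a model of inflammatory bowel disease. The mice were selected on their score, so genotype and score change together and cannot be told apart. All samples carried Cy3 and were set against a Cy5-labelled common reference, a pool of adult small intestine, colon, kidney and liver and of whole fetuses from Swiss mice.

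MHC class I molecules show peptides from inside the cell to CD8 T cells and natural killer cells. The proteasome cuts the peptides, the TAP transporter (Tap1 and Tap2) moves them into the endoplasmic reticulum, and tapasin (Tapbp) holds the transporter next to an empty class I molecule while a peptide is loaded. Each class I molecule is a heavy chain, such as H2-K1 or H2-D1, paired with the shared light chain beta-2-microglobulin (B2m). Interferon gamma, which T cells and natural killer cells release, is a known inducer of many of these genes. Heavy chains differ between mouse strains, and FVB/N carries another H2 haplotype than the C57BL/6 mouse of the reference genome. The heavy chain genes also resemble one another closely, so a probe may bind RNA of several of them. Cross-binding was not tested, because the probe sequences were not used here.

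The labels were checked before the comparisons. Slide numbers in the array files matched those that the protocol lists for the group in 3 of 4 Mdr1a-/- arrays (not replicate 3) and in 0 of 4 arrays labelled FVB/N. The single Abcb1a probe (A_51_P155445) had a mean log2 ratio of sample to reference of -0.88 on the Mdr1a-/- arrays, with an SD of 0.12, against -0.48 on those labelled FVB/N, with an SD of 0.35 (n = 4 each). The difference of -0.40 ± 0.19 (SE) did not pass (limma adjusted p = 0.362), and its 95% interval ran from -0.83 to 0.02. In the authors' deposited table the same probe has a log2 fold change of -1.62 with an adjusted p of 9.75e-05. The sources used here do not place the probe relative to the disrupted part of the gene. The probe passed as lower in the authors' deposited table and did not pass in the fit here, and the reason was not tested. The genotype labels are thus not borne out by this probe on these arrays. The second group is therefore called the arrays labelled FVB/N, and every direction below rests on the labels. Signs are sample over reference, as the deposited description states. The deposited normalized column itself was found to be reference over sample, and its sign was turned.

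Most of the class I genes lie together in the H2 complex. In RefSeq annotation of the GRCm38.p6 assembly, 8 of the 10 members are on chromosome 17, B2m is on chromosome 2 and Cd1d1 on chromosome 3. Start regions of 7 member genes were matched in the RefSeq promoter table, each 250 bases before to 50 bases after the start site. Tap2, H2-T10 and Cd1d1 were not among them. H2-K1 had a further window from another start site, which is not shown. The H2-K1 stretch shown lies inside the span that RefSeq annotates for the gene (chr17:33996012-34000619). The stretches that carry the shared elements are shown here on the strand of each gene, up to the base before the start site. Capitals mark matches, on either strand, to the interferon-stimulated response element core (GAAANNGAAA), the gamma-activated site (TTCNNNGAA) or the NF-kB consensus.
H2-K1 (chr17:34000348-34000557, minus strand): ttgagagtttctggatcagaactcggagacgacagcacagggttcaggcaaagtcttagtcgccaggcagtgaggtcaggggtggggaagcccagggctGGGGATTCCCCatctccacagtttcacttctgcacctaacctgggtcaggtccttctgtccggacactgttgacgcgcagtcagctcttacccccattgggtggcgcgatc
H2-D1 (chr17:35262884-35263093, plus strand): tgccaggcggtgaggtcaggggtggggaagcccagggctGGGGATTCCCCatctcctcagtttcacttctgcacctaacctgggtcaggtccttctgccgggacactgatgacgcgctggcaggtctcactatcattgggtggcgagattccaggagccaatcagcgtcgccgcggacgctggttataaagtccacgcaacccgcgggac
B2m (chr2:122147477-122147686, plus strand): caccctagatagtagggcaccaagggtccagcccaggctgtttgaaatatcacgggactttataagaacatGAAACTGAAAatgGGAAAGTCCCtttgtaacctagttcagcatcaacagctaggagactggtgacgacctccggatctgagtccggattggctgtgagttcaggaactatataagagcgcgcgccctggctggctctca
H2-T23 (chr17:36032702-36032911, minus strand): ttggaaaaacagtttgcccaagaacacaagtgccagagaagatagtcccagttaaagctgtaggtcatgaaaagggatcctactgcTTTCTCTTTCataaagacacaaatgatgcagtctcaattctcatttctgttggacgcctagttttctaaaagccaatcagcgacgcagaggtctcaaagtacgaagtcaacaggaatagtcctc
H2-M3 (chr17:37270024-37270233, plus strand): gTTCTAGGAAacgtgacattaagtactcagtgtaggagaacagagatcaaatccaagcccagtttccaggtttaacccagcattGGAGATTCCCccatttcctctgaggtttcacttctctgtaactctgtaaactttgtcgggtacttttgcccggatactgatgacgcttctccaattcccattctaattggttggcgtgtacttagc
Tap1 (chr17:34187331-34187555, plus strand): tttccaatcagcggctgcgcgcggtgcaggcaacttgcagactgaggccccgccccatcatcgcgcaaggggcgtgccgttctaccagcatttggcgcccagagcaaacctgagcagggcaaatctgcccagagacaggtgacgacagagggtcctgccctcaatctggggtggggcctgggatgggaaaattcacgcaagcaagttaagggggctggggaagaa

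The 2 classical heavy chain genes share more letters here than any other pair of members. H2-K1 and H2-D1 have a run of 47 identical bases in these windows, and that run holds the NF-kB match. The next longest run shared by 2 members, H2-D1 and H2-T23, was 12 bases. An NF-kB match was in the windows of 4 of the 7 genes (B2m, H2-D1, H2-K1 and H2-M3) and in 8.46% of all 32851 windows. The interferon core was in 2 of 7 (B2m and H2-T23) and in 3.44% of all windows. That pattern is strict and variants of the element were not searched, so a window without a match may still hold one. In B2m that core covers bases -139 to -130 from the start site, and the NF-kB match lies next to it at -126 to -117. The gamma-activated site was in H2-M3 alone among the 7, and in 8.30% of all windows. A CCAAT box was in 7 of 7 windows against 37.4% of all, and the short cyclic AMP response motif (TGACG) in 5 of 7 against 20.8%. The Tap1 stretch is the whole span between the start site of Tap1 and that of Psmb9, an immunoproteasome subunit gene read from the opposite strand. Their start sites are 226 bases apart, so both genes share this sequence. These matches are letters in the reference strain and say nothing of binding.

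Beta-2-microglobulin and several heavy chains were too bright for these arrays to measure. Spot intensities pile up just below the scanner maximum of 65535, and a spot at or above 80% of that maximum is called here at the ceiling. For 6 of the 16 probes the reference channel was at the ceiling on all 8 arrays, namely both B2m probes, both H2-T23 probes, the H2-D1 probe and 1 of 3 H2-K1 probes. A ratio from such a spot can understate a difference. The other 10 probes, of 7 genes, stayed below the ceiling in both channels on all 8 arrays, and the main results rest on them. All members' probes but 1, a second H2-M3 probe, were above background on all 8 arrays.

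**Figure D1:**
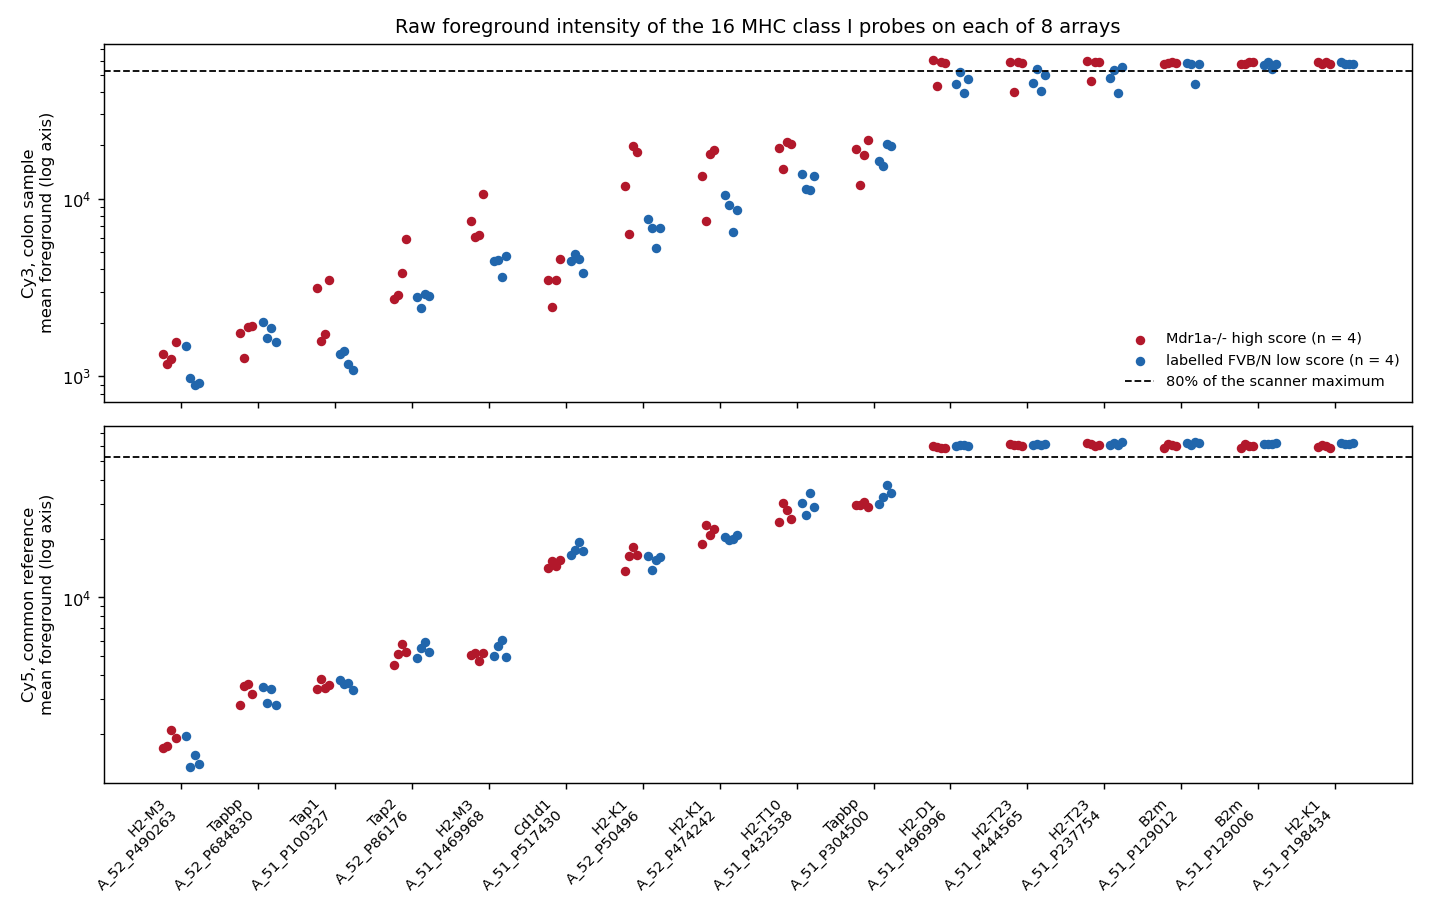
Mean foreground intensity (log axis) of the 16 probes on each array, for the Cy3 sample channel above and the Cy5 reference channel below, ordered by mean intensity. Each point is 1 array and the dashed line marks 80% of the scanner maximum; the 6 rightmost probes have all 8 reference spots above the line.

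The transporter gene Tap1, the classical heavy chain gene H2-K1 by 1 of its 3 probes, and the nonclassical heavy chain genes H2-T10 and H2-M3 were higher in Mdr1a-/- colon. Of the 16 probes, 4 passed the test as higher (Tap1, H2-K1, H2-T10 and H2-M3), 0 passed as lower and 12 did not pass (limma adjusted p under 0.05 over all probes). Over the whole array 1.53% of probes passed as higher. All 16 fold changes were positive, 9 with an unadjusted p under 0.05, which 7.87% of all probes had as higher. The groups did not overlap, with every Mdr1a-/- array above, for 8 of the 16 probes, 6 of them below the ceiling, against 5.31% of all probes. With the brightest probe standing for each gene, 3 of the 10 genes passed as higher (Tap1, H2-T10 and H2-M3), against 1.82% of all genes, and 0 as lower, against 1.68%. At an unadjusted p under 0.05, 7 of the 10 genes were higher and 0 lower, against 8.56% and 7.49% of all genes. These 7 genes, like the 9 probes above, include H2-D1 and H2-T23, whose reference spots were at the ceiling. With spots at the ceiling left out, the brightest probes of B2m, H2-K1, H2-D1 and H2-T23 had no ratio left. Among the other genes, 5 were higher and 0 lower at an unadjusted p under 0.05 in limma. In that setting 5842 of 40148 probes had such a p in either direction. The median log2 fold change was 0.36 over the 10 genes and 0.86 over the 7 genes with a probe below the ceiling, against 0.03 over all genes.

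Several markers of immune cells were also higher on the Mdr1a-/- arrays. Of 8 leukocyte markers, 5 passed as higher, among them Ptprc (CD45), named after its value was seen, at 2.21 ± 0.30 (SE, limma adjusted p = 0.00634). The mean log2 ratio of the 8 lay between 1.02 and 1.98 on Mdr1a-/- arrays and between 0.10 and 0.67 on the arrays labelled FVB/N. Of 9 T and NK cell markers 3 passed as higher, with means of 0.38 to 1.02 against -0.00054 to 0.24, and of 7 macrophage and monocyte markers 2 passed, with means of 1.20 to 1.59 against -0.09 to 0.42. All 12 colon epithelium markers were above background on all 8 arrays. Of these 12 markers, 0 passed as higher and 1 as lower, the chloride exchanger gene Slc26a3. At an unadjusted p under 0.05 in limma, 1 of the 12 was higher and 4 were lower. The means of the 12 were -0.10 to 0.01 against -0.01 to 0.50. No marker of B cells, endothelium, smooth muscle, fat or pancreas passed, although with limma's unadjusted p under 0.05 they counted 1, 0, 0, 0 and 0 higher and 0, 0, 2, 3 and 3 lower. The fat and pancreas means spread most, from -1.07 to 1.96 and from -1.51 to 1.84 over the 8 arrays. In bulk colon, more cells of a type and more RNA per cell cannot be told apart, and the part of the immune cell markers in the class I values was not tested.

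**Figure D2:**
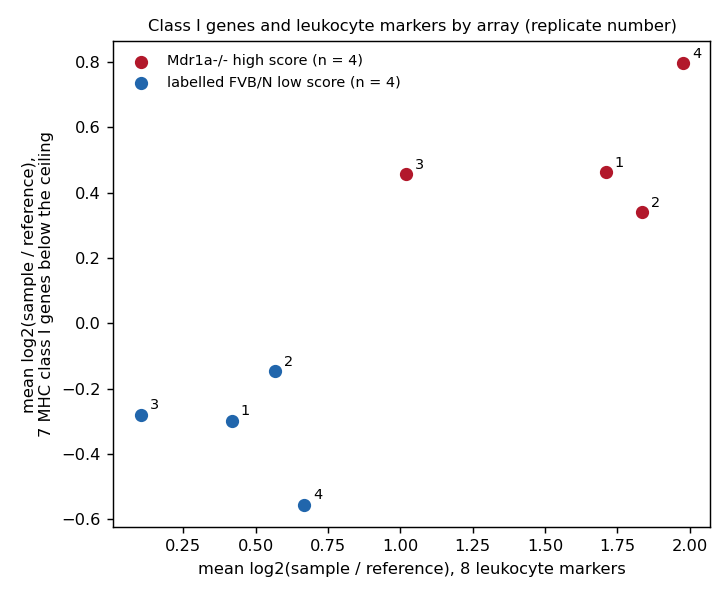
Mean log2 ratio of 7 MHC class I genes below the ceiling (vertical) against that of 8 leukocyte markers (horizontal), 1 point per array, numbered by replicate. The Mdr1a-/- arrays lie at 0.34 to 0.80 on the vertical axis and the arrays labelled FVB/N at -0.56 to -0.15, and the groups are apart on both axes.

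Averaged over the 7 genes below the ceiling, the log2 ratio was 0.46, 0.34, 0.46 and 0.80 on Mdr1a-/- arrays 1 to 4 and -0.30, -0.15, -0.28 and -0.56 on arrays 1 to 4 labelled FVB/N. Mdr1a-/- array 4 was highest on both the class I and the leukocyte axis. Among the arrays labelled FVB/N, array 4 was lowest for class I and highest for the leukocyte markers. After each gene's group mean was taken off, the 21 pairs of these 7 genes correlated over the 8 arrays at -0.14 to 0.71, with a median r of 0.34 and 19 pairs above 0. All pairs share the same arrays and reference, so this is a description only.

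Tap1 encodes one subunit of the TAP peptide transporter. Its log2 ratios were 1.16, 0.10, 0.13 and 1.23 on Mdr1a-/- arrays 1 to 4 and -0.88, -0.79, -1.01 and -1.52 on the arrays labelled FVB/N. The groups did not overlap, and the Mdr1a-/- arrays fell into a pair near 1.2 and a pair near 0.1. The difference was 1.70 ± 0.30 (SE) on the log2 scale, or 3.26-fold (limma adjusted p = 0.0192). The sample channel alone gave 1.41 ± 0.33 (SE, limma adjusted p = 0.0483). The call was lost when Mdr1a-/- array 1 or 4, or array 3 or 4 labelled FVB/N, was left out, with an adjusted p of up to 0.061.

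Tap2 encodes the other subunit of the transporter. Its log2 ratios were 0.34, 0.80, 0.71 and 1.42 on Mdr1a-/- arrays and 0.05, -0.15, 0.15 and -0.21 on the arrays labelled FVB/N. Every Mdr1a-/- array was above every other array, but the log2 fold change of 0.86 ± 0.22 (SE) did not pass (limma adjusted p = 0.0834). With arrays weighted by quality it passed (limma adjusted p = 0.0476).

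Tapbp encodes tapasin, which bridges the transporter and the heavy chain. Its brighter probe (A_51_P304500) read 0.12, 0.17, 0.14 and 0.32 in Mdr1a-/- mice and -0.24, -0.17, 0.08 and -0.26 on the arrays labelled FVB/N. The groups were apart by a narrow margin, at a log2 fold change of 0.33 ± 0.14 (SE, limma adjusted p = 0.283). The dimmer probe (A_52_P684830) gave 0.06 ± 0.20 (SE, limma adjusted p = 0.939), with overlapping groups and Mdr1a-/- array 2 the lowest of all 8 at -0.40. Neither probe passed, and the sign of the dimmer one turned under 6 other settings.

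**Figure D3:**
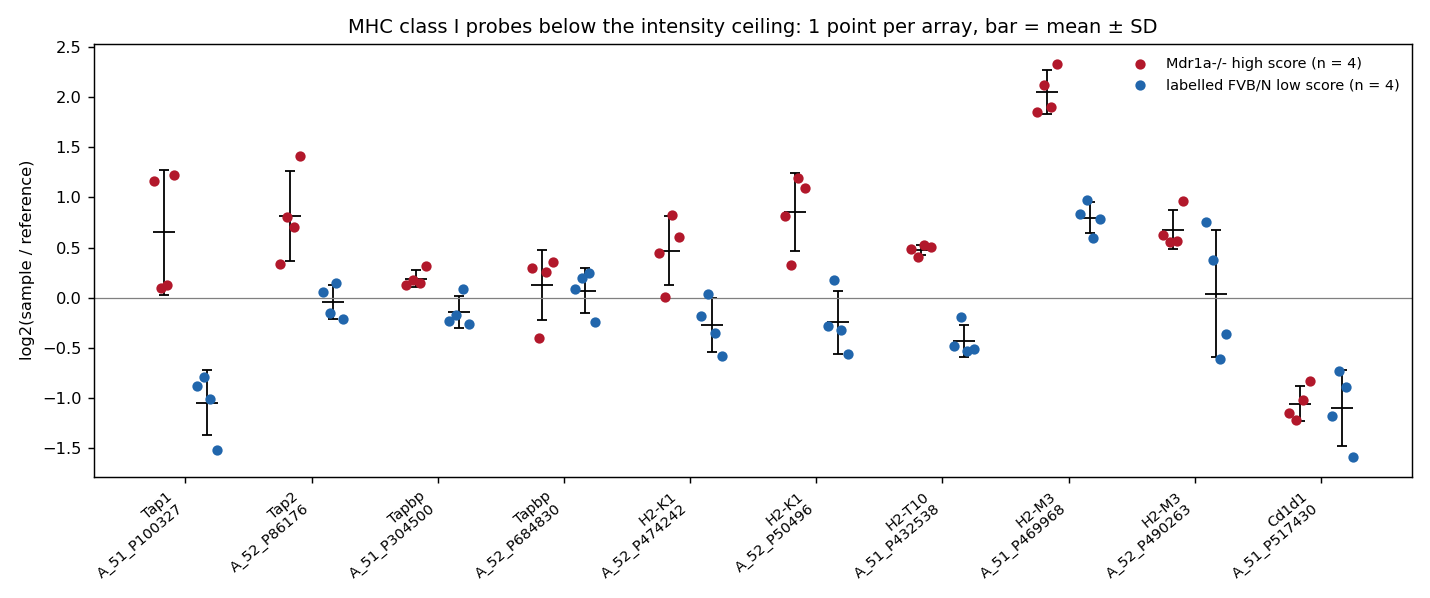
Log2 ratio of sample to reference for the 10 probes below the ceiling, 1 point per array, with the mean and SD of 4 arrays as bars. Tap1, Tap2, 1 Tapbp probe, 1 H2-K1 probe, H2-T10 and 1 H2-M3 probe show every Mdr1a-/- array above every array labelled FVB/N, and the Cd1d1 groups overlap.

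H2-K1 encodes a classical heavy chain, and its 3 probes disagreed in size. The probe A_52_P50496 read 0.81, 0.32, 1.19 and 1.09 in Mdr1a-/- mice and -0.28, 0.18, -0.32 and -0.56 on the arrays labelled FVB/N. The groups did not overlap, with array 2 of each group closest to the other group. Its log2 fold change was 1.10 ± 0.23 (SE), a 2.15-fold difference (limma adjusted p = 0.0368). That call was lost in 11 of 21 other settings, among them the sample channel alone (limma adjusted p = 0.0588) and 6 of 8 fits without 1 array. The probe A_52_P474242 read 0.45, 0.00, 0.82 and 0.61 against -0.19, 0.04, -0.36 and -0.59. Its groups overlapped by 1 array and its log2 fold change of 0.74 ± 0.21 (SE) did not pass (limma adjusted p = 0.105). It passed when Mdr1a-/- array 2 was left out (limma adjusted p = 0.0496) and with array weights (limma adjusted p = 0.0393).

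The third H2-K1 probe (A_51_P198434) was at the ceiling in both channels on all 8 arrays. Its ratio of 0.17 ± 0.16 (SE, limma adjusted p = 0.688) is thus no measure of the gene, and no fold is given. H2-D1, the other classical heavy chain, had 1 probe, with the reference at the ceiling on all 8 arrays and the sample at the ceiling on 3 of 4 Mdr1a-/- arrays and on 0 of 4 labelled FVB/N. Its log2 ratios were 0.44, 0.56, 0.59 and 0.47 in Mdr1a-/- mice and -0.03, 0.37, 0.15 and 0.01 on the arrays labelled FVB/N. The groups did not overlap, but the log2 fold change of 0.39 ± 0.14 (SE) did not pass (limma adjusted p = 0.21). The sample channel alone gave a 1.43-fold difference, which did not pass either (limma adjusted p = 0.119) and is limited by the 3 spots at the ceiling.

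B2m, the light chain that every class I heavy chain needs, could not be compared. Sample intensities of 1 probe ran from 57384 to 59075 in Mdr1a-/- mice and from 54099 to 58807 on the arrays labelled FVB/N, all at the ceiling. The other probe was at the ceiling on 4 of 4 Mdr1a-/- arrays and 3 of 4 labelled FVB/N, where the lowest spot read 44191. Neither probe limits a change of B2m in either direction.

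**Figure D4:**
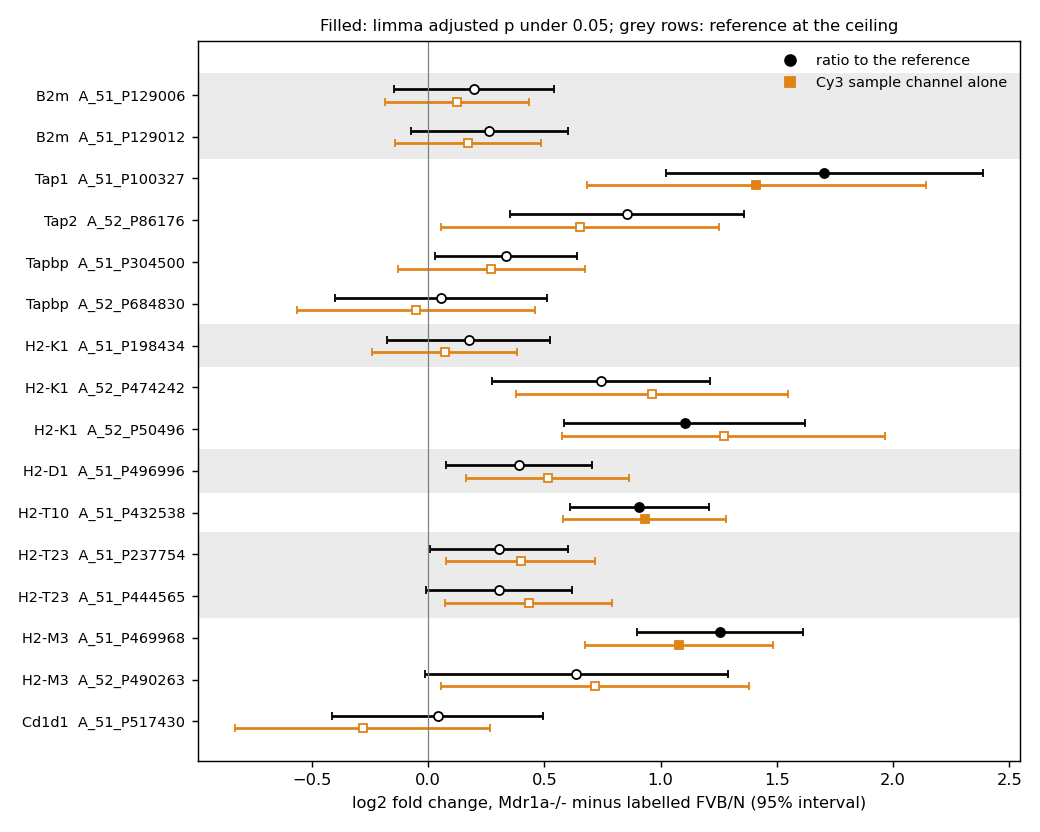
Log2 fold change (Mdr1a-/- minus arrays labelled FVB/N) of each probe with its 95% interval, from the ratio to the reference (black) and from the Cy3 sample channel alone (orange). Filled symbols have a limma adjusted p under 0.05; grey rows mark the 6 probes whose reference spots were at the ceiling, all between 0.17 and 0.39 by ratio.

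H2-M3 encodes a nonclassical heavy chain that binds N-formylated peptides of bacterial and mitochondrial origin. Its brighter probe (A_51_P469968) read 1.85, 2.13, 1.90 and 2.34 in Mdr1a-/- mice and 0.83, 0.98, 0.59 and 0.79 on the arrays labelled FVB/N. Every array was above the reference and the groups were far apart. The log2 fold change was 1.26 ± 0.16 (SE), a 2.39-fold difference (limma adjusted p = 0.00452), and the call held in each of the 8 fits without 1 array. The second H2-M3 probe (A_52_P490263) was above background on 4 of 4 Mdr1a-/- arrays but on 1 of 4 labelled FVB/N. It gave 0.64 ± 0.29 (SE, limma adjusted p = 0.348), with overlapping groups.

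H2-T10 belongs to the H2-T region, and its product is known as a ligand of some gamma delta T cells, although RefSeq lists the gene as a transcribed pseudogene in the reference strain. Its log2 ratios were 0.48, 0.41, 0.52 and 0.50 in Mdr1a-/- mice and -0.48, -0.19, -0.53 and -0.51 on the arrays labelled FVB/N. Both groups were tight, and array 2 labelled FVB/N was the one nearest the Mdr1a-/- arrays. The log2 fold change was 0.91 ± 0.13 (SE), a 1.88-fold difference (limma adjusted p = 0.0082), and it held in each of the 8 fits without 1 array. The sample channel alone gave 0.93 ± 0.16 (SE, limma adjusted p = 0.0128).

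H2-T23 encodes Qa-1, which shows leader peptides of other class I chains to NKG2 receptors on natural killer cells. Both of its probes had the reference at the ceiling on all 8 arrays. The probe A_51_P237754 read 0.38, 0.59, 0.57 and 0.42 against 0.08, 0.35, 0.15 and 0.15, without overlap, for 0.31 ± 0.13 (SE, limma adjusted p = 0.317). The probe A_51_P444565 gave 0.30 ± 0.14 (SE, limma adjusted p = 0.358), with overlapping groups. Neither passed.

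Cd1d1 encodes a class I-like molecule that shows lipids to natural killer T cells and is loaded without TAP. Its log2 ratios were -1.15, -1.23, -1.03 and -0.83 in Mdr1a-/- mice and -1.18, -0.73, -0.89 and -1.59 on the arrays labelled FVB/N. All 8 were below the reference and the Mdr1a-/- values lay within the range of the others. Its log2 fold change of 0.04 ± 0.20 (SE) had a 95% interval of -0.41 to 0.49 (limma adjusted p = 0.956), and the sign turned under 5 other settings.

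Scan day, a batch that could be set apart in part, is the date in the deposited name of each array. It was taken here to be the day of scanning. The 3 dates are called days 1 to 3. Day 2 held 2 arrays a group, day 3 held 1 Mdr1a-/- array beside 2 labelled FVB/N, and day 1 a single Mdr1a-/- array. With scan day as a block, H2-M3 (A_51_P469968) kept its call at 1.17 ± 0.18 (SE, limma adjusted p = 0.0404). Tap1 at 1.46 ± 0.30 (SE, limma adjusted p = 0.0967), H2-T10 at 0.92 ± 0.17 (SE, limma adjusted p = 0.0673) and H2-K1 (A_52_P50496) at 1.08 ± 0.25 (SE, limma adjusted p = 0.133) did not pass. Within day 2 the log2 fold changes of H2-M3, Tap1, H2-T10 and that H2-K1 probe were 1.28, 1.57, 0.95 and 0.87, and within day 3, where 1 Mdr1a-/- array stands against 2, they were 1.02, 1.28, 0.87 and 1.38. No probe of the array passed within day 2, and 4200 had an unadjusted p under 0.05 in limma. Without Mdr1a-/- array 3, whose slide number the protocol does not list, 3 of the 10 genes still passed as higher.

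The change of the transporter genes was compared with that of H2-K1 by an exact permutation test over the 8 arrays, two-sided, with 70 regroupings and a smallest possible p of 0.0286. The planned contrasts of the transporter genes and of B2m with H2-K1 and H2-D1 used probes at the ceiling, so they are not read here. The mean of Tap1 and Tap2 minus the mean of the 2 H2-K1 probes below the ceiling, a choice made after the ceiling was seen, was 0.07 ± 0.46 (SD, n = 4) for Mdr1a-/- and -0.28 ± 0.21 (SD, n = 4) for the other group. The difference of 0.36 was not larger than the spread between arrays (exact permutation p = 0.257, also 0.257 after adjustment over 3 contrasts).

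Around the 10 genes, other parts of the class I pathway were read from 5 lists. Of 87 listed genes 77 were measured, with 1 name found to be an older name of another listed gene, and 9 of the 77 passed as higher and 0 as lower (limma). Over all genes 1.82% passed as higher. At an unadjusted p under 0.05, 24 were higher and 3 lower, against 8.56% and 7.49% of all genes. With scan day as a block 0 of the 77 passed in limma, with 21 higher and 2 lower at an unadjusted p under 0.05. In that setting 133 of 41174 probes passed as higher, and 4910 had an unadjusted p under 0.05 in either direction. Of the 77, 16 had a spot at the ceiling. The mean of the leukocyte markers described above was also higher on the Mdr1a-/- arrays, and the part of these markers in the list values was not tested.

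The peptide-cutting step showed 2 genes that passed among 9 measured. Psmb9 and Psmb8 encode catalytic subunits that replace constitutive ones in the immunoproteasome. Psmb9 rose by 1.54 ± 0.22 on the log2 scale (SE, limma adjusted p = 0.00723) and Psmb8 by 1.42 ± 0.22 (SE, limma adjusted p = 0.0108). In both, every Mdr1a-/- array was above every array labelled FVB/N. With scan day as a block neither passed (limma adjusted p = 0.0621 and 0.0607). The median log2 fold change of the 9 was 0.50 and all 9 were positive. Psmb10, the remaining catalytic subunit gene of the immunoproteasome, had reference spots at the ceiling and a log2 fold change of 0.19 ± 0.13 (SE, limma adjusted p = 0.586), and was named after its value was seen.

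Other heavy chains included 4 that passed as higher among 21 measured, all of the Q region. H2-Q8 had a log2 fold change of 1.67 ± 0.32 (SE, limma adjusted p = 0.0248) and H2-Q2 of 1.10 ± 0.23 (SE, limma adjusted p = 0.0399), both below the ceiling. H2-Q5, at 0.71 ± 0.16 (SE, limma adjusted p = 0.0442), and H2-Q1, at 0.58 ± 0.13 (SE, limma adjusted p = 0.0473), had the reference at the ceiling on all 8 arrays. The median of the 21 was 0.32. H2-Q genes are near-identical copies of one another, so which copy these probes read is uncertain. Of 8 fits without 1 array, the call was lost in 8 for H2-Q1, 7 each for H2-Q2 and H2-Q5, and 6 for H2-Q8. Within scan day 3 the log2 fold change of H2-Q8 was 0.57.

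Within the endoplasmic reticulum, 1 of 12 genes for peptide trimming, folding and editing passed, the aminopeptidase gene Erap1, at 1.03 ± 0.21 (SE, limma adjusted p = 0.0333). It lost the call in 7 of 8 fits without 1 array. The median of the 12 was -0.06. Of 20 regulators of class I transcription, Irf9 passed, at 0.97 ± 0.17 (SE, limma adjusted p = 0.0153), and lost the call in 2 of 8 fits without 1 array. The median of the 20 was 0.21 and 11 were positive. At an unadjusted p under 0.05 in limma, 6 of the 20 were higher and 2 lower, against 8.56% and 7.49% of all genes. Irf9 encodes the DNA-binding part of the complex that type I interferon activates. Ifng, which encodes interferon gamma and was named after its value was seen, had a larger fold change of 1.78 ± 0.48 (SE, limma adjusted p = 0.0921) and did not pass. Among 15 genes of receptors that read class I, the inhibitory receptor gene Pirb passed, at 1.64 ± 0.33 (SE, limma adjusted p = 0.0334). It lost the call in 6 of 8 fits without 1 array, and with median centring, the scan day block or an intensity trend. The median of the 15 was 0.09. Cd8a and Cd8b1, for the chains of the T cell co-receptor for class I, were also named after their values were seen. Cd8a had 0.17 ± 0.14 (SE, limma adjusted p = 0.655). Cd8b1 went the other way, at -0.68 ± 0.33 (SE, limma adjusted p = 0.375).

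**Figure D5:**
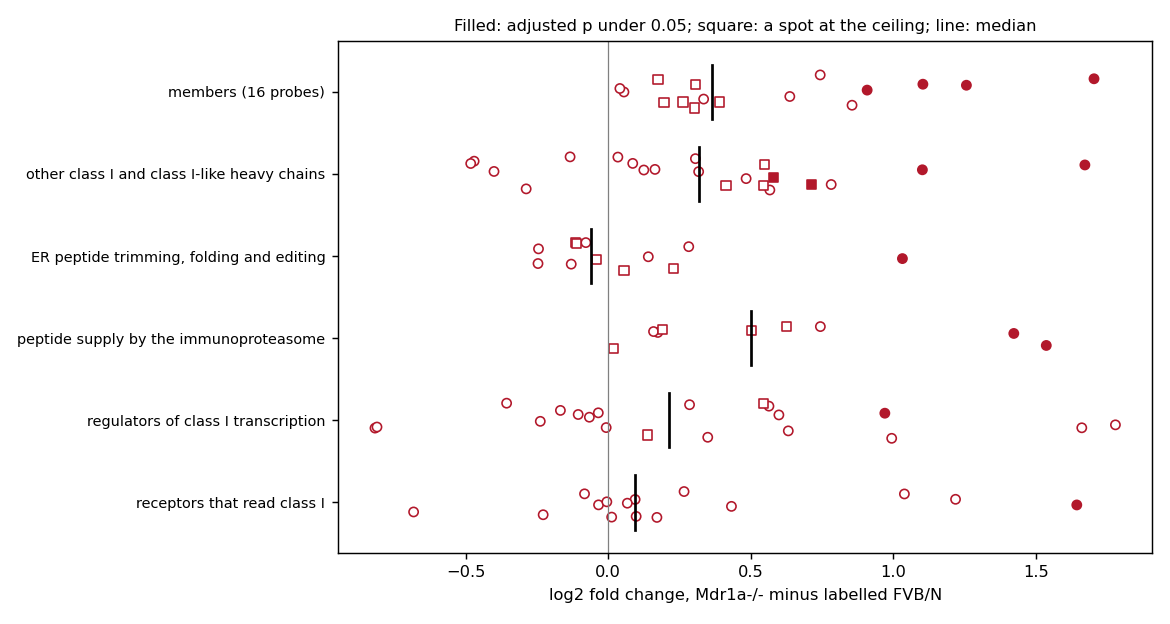
Log2 fold change of the 16 member probes and of each measured gene in 5 lists of the class I pathway (horizontal axis), 1 symbol per probe or gene, with the median as a line. Filled symbols passed at a limma adjusted p under 0.05 and squares had a spot at the ceiling; the filled ones all lie above 0.5.

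The authors' deposited table, which compares the same groups by its labels, gives positive log2 fold changes for all 16 member probes. At an adjusted p under 0.05, 9 of the 16 are higher and 0 lower in the authors' deposited table, in which 6.31% of 35449 tested spots are higher. These 9 include Tap2 at 1.12, H2-D1 at 0.65 and both H2-T23 probes at 0.45 and 0.55 in the authors' deposited table. The H2-D1 probe and both H2-T23 probes had reference spots at the ceiling, which limits their ratios. The tested spots and the values of the authors' deposited table differ from those of the fit here. Why they differ, and whether the same arrays were used, was not tested. For Tap1 the authors' deposited table has 1.27 and for H2-M3 (A_51_P469968) 1.40.

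Genes whose pattern over the 8 arrays was most like the members' mean were sought among 14114 genes above background on all 8 arrays. The 6 with the highest Pearson r were Themis (0.974), Laptm5 (0.973), Tpst2 (0.967), Cyp2b13 (0.960), Osbpl3 (0.957) and Pitpnm1 (0.953). After the group means were taken off, their r lay between 0.769 and 0.885. Of the 6, Laptm5, which is also one of the 8 leukocyte markers, and Osbpl3 passed the test between groups, at 1.17 ± 0.20 (SE, limma adjusted p = 0.0148) and 0.69 ± 0.15 (SE, limma adjusted p = 0.0483). The pattern used so far took the brightest probe of each of the 10 genes. For B2m, H2-K1, H2-D1 and H2-T23 that probe had the reference at the ceiling on all 8 arrays. With the 7 genes below the ceiling as the pattern, 2 of the 6 names stayed, Themis and Osbpl3. All genes share the arrays and the reference, so these are descriptions over 8 points.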

How the data were processed

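Per the file headers, the array files give each spot's mean foreground and background intensity per channel, and a log2 ratio normalized by the authors. The submitters' processing notes name limma without a version. Local background subtraction and loess of Cy5 over Cy3 differed from that deposited log2 column by at most 2.72e-13. The authors' deposited table gives log2 fold changes, a t score, p-values and adjusted p-values.

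Intensities were refitted with limma 3.58.1 (R 4.3.3): normexp with an offset of 50, loess with control spots at weight 0, and probes averaged over spots. lmFit and eBayes compared the groups without covariates, two-sided, and a probe passed when its p, adjusted by Benjamini-Hochberg over 41174 probes, was under 0.05. Tables and figures used Python 3.11.15. Above background means a Cy3 signal past the 95th percentile of 314 negative control spots. Between 67.0% and 86.3% of probes passed per array, and 4 arrays a group limit the precision. In data simulated for this comparison over 41174 probes, 35% of 100 probes changed by 1 and 81% of 100 changed by 2 (log2) were found. The planned saturation limit of 95% of the scanner maximum caught 0 to 3 sample spots an array, so the ceiling of 80% was set after the data were seen.

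The members, lists, markers and motifs were chosen with earlier results of these data known. Named genes are every member probe, the called genes of each list (up to 6 by p), Abcb1a and the 6 genes most like the members. Psmb10, Ifng, Cd8a, Cd8b1, Ptprc and Slc26a3 fall outside this rule and were named after their values were seen. Nothing says that same-numbered mice share a litter or day. Alternatives covered background, normalization, channel, filters, scan day, replicate block, weights, threshold, probe choice and each array left out. The p-values measure the spread between these mice.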

Additional observations from a re-analysis of the deposited data

Results flagged for a closer look

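In 4 of 50 groups of 4 arrays among the named probes, 1 array stood apart from the other 3, where chance gives about 1 in 20. For Tapbp (A_52_P684830), Mdr1a-/- array 2 read -0.40 on the log2 ratio scale, against 0.25 to 0.36 on the other 3. For H2-T10, array 2 labelled FVB/N read -0.19, against -0.53 to -0.48. For the dimmer H2-M3 probe (A_52_P490263), Mdr1a-/- array 4 read 0.96, against 0.55 to 0.62. For Pirb, array 1 labelled FVB/N read 1.96, against 0.36 to 0.61.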

How the results depend on the processing

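The count of member genes that passed as higher was 3 of 10 and became 1 with scan day as a block and 0 within scan day 2 (3 at an unadjusted p under 0.05 in limma). Leaving out 1 array gave 2 to 3. The replicate numbers were not treated as pairs, because nothing says that same-numbered mice belong together. The deviations of same-numbered arrays correlated at -0.035 to 0.11, and not every array correlated best with its own number. So few values cannot decide whether the mice were paired. With the replicate block 1 member gene (H2-M3), 2 list genes, 310 probes higher and 286 lower passed. Of the list genes, 9 passed as higher, 15 without background correction, 14 from the sample channel alone, 15 with array weights, 1 at an adjusted p under 0.01, and 0 both with the scan day block and within day 2 (21 and 16 at an unadjusted p under 0.05 in limma), with 2 to 9 when 1 array was left out. Over the whole array 628 probes passed as higher and 598 as lower. With the scan day block these were 133 and 115, within day 2 0 and 0 (4200 at an unadjusted p under 0.05 in limma), with array weights 1081 and 939, at an adjusted p under 0.01 180 and 186, and with 1 array left out 250 to 783 and 247 to 675. From the sample channel alone 472 were higher and 899 lower, so the share of higher among those that passed fell from 51.2% to 34.4%. The dimmer Tapbp probe, at 0.06, turned to -0.053 in the sample channel alone, -0.020 with the day block, -0.22 within day 2, and between -0.051 and 0.23 with 1 array left out (-0.00027, -0.022 and -0.051 without Mdr1a-/- array 1 or 4 or array 4 labelled FVB/N). Cd1d1, at 0.04, turned to -0.28, -0.036 and -0.15 under the same 3 settings and ran from -0.12 to 0.16 with 1 array left out, below 0 without Mdr1a-/- array 4 or array 4 labelled FVB/N. The cause of these shifts was not tested. Aquantile scaling leaves the ratios as they are by construction.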
